A study of Sus scrofa with 6 samples.

Results

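GPX3, CDO1 and MT-2B encode a peroxidase, a cysteine-degrading enzyme and a metal-binding protein, and their signals were followed over 6 arrays of porcine cartilage and cartilage cells. All probe sets annotated with 1 of these symbols on the pig expression array were taken, which gave 3 probe sets of 23999, 1 for each gene, or 3 genes of 6765. Their NCBI gene IDs are 396598 for GPX3, 100312964 for CDO1 and 396827 for MT-2B. The genes were chosen by their signals on these same arrays: GPX3 for its difference between the tissues, CDO1 for a tissue difference that changes sides, and MT-2B for its difference between native tissue and culture. Those values are given as descriptions, with no test.

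The arrays measured native growth plate cartilage, growth plate chondrocytes at day 10 and day 20 of culture, native articular cartilage, and articular chondrocytes at day 10 and day 20 of culture, with 1 array for each. Growth plate cartilage is the tissue by which long bones lengthen, and articular cartilage covers the joint surface. Cultured cells had been freed from their matrix with collagenase and kept in DMEM/Ham's F12 with serum and antibiotics at 37 °C in 5% oxygen, with nothing further added. Breed, age, sex and number of pigs, and whether animals were pooled, are not given in the sources used here. No condition has a replicate, so single arrays are compared by signal and ratio alone. In bulk RNA, fewer cells of a type and less RNA per cell cannot be told apart.

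GPX3 is the secreted, selenium-containing member of the glutathione peroxidases, which reduce hydrogen peroxide and lipid peroxides with the help of glutathione. CDO1, cysteine dioxygenase, oxidises cysteine to cysteine sulfinic acid, and so draws cysteine away from glutathione and towards taurine and sulfate. Metallothioneins such as MT-2B are small cysteine-rich proteins that bind zinc and copper, and in mammals their genes respond to metals, glucocorticoids and inflammatory signals.

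Signals are linear values on which every array had nearly the same trimmed mean. A floor of 36.1, the 40th percentile of all signals, was used: lower signals were set to it before log2 was taken, and a ratio against a signal below it is a lower bound, written "at least" or "or more". Of 6765 genes with a symbol, the 5601 above the floor on at least 2 arrays were compared. All 3 genes were among them, CDO1 and MT-2B above the floor on 6 arrays and GPX3 on 4. GPX3 would have been kept through its growth plate signals alone, so that its tissue direction is not independent of the filter.

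Chondrocyte markers were present on every array. The summed signal of the 6 markers on the array, of 13 listed, lay between 29764 and 37025 in growth plate samples and between 31515 and 39900.3 in articular samples. The native articular array resembled the others least. Its correlations with them, taken over genes, averaged 0.889, and the same average was 0.930 to 0.939 for each of the other 5.

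GPX3 was higher in growth plate than in articular samples at every stage. Its signals were 119 in native tissue, 256 at day 10 and 335 at day 20 in growth plate samples, against 17.1, 13.3 and 88.5 in articular samples. Every growth plate signal lay above every articular one, and only the day 20 articular culture was above the floor among the articular samples. Of all genes tested, 4.82% had every growth plate signal above every articular one.

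The growth plate signal of GPX3 was 3.29 times the articular one or more in native tissue, 7.08 times or more at day 10, and 3.79 times at day 20. In native tissue 12.9% of genes were 2-fold or more above their articular signal, at day 10 0.625% were 4-fold or more above it, and at day 20 2.82% were 2-fold or more above it. GPX3 was 1 of 31 genes (0.553% of those tested) that reached 2-fold in all 3 pairs, which is how it came to be chosen. The day 20 difference, the one measured above the floor on both sides, ranked 26th from the top among 5601 genes. In this and the other ranks, signals under the floor stand at the floor. Averaged over the stages, with 2 articular signals set to the floor, the fitted log2 difference was 2.15 ± 0.32 (SE). With the floor at the 25th percentile it was 2.93, with a pseudocount of 50 in place of the floor it was 1.69, and with the floor at the 60th percentile it was 0.74, both native signals then lying under the floor.

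The summed signal of osteoblast markers was also higher in growth plate samples, though single markers went both ways. The 6 on the array, of 7 listed, summed to 24867, 25785 and 29690 in growth plate samples, against 19418, 11090 and 11027 in articular samples. IBSP, a mineral-binding bone matrix protein, had signals of 10642, 14034 and 15675 in growth plate samples against 53.2, 309 and 5958 in articular samples. SPP1, which encodes osteopontin, had 14127, 11654 and 13958 in growth plate samples against 19241, 10658 and 4955 in articular samples, and so was lower in growth plate in native tissue. SP7, the transcription factor that defines osteoblasts, was under the floor on all 3 growth plate arrays and at 57.3 at day 20 in articular cells. BGLAP, which encodes osteocalcin, had 60.3, 27.1 and 23.2 in growth plate samples against 50.3, 64.6 and 15.2 in articular samples. DMP1 had 18.2, 42.8 and 6.66 against 51.4, 27.1 and 39.5, and PHEX was under the floor on every array. The part of osteoblasts in the GPX3 signal was not tested.

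In culture, GPX3 was higher than in native growth plate cartilage at both days, by 2.15-fold at day 10 and 2.82-fold at day 20. At least 2-fold higher signals were seen for 7.43% of genes at day 10 and 4.57% at day 20 in that tissue. In articular samples GPX3 lay under the floor in native tissue and at day 10, and was at least 2.45-fold higher at day 20 than in either. Over both tissues the culture minus native log2 difference was 0.97 ± 0.34, and 1.30 without native articular cartilage, with a limma adjusted p of 0.209, and 0 of all genes were called in that contrast (19.4% had an unadjusted p under 0.05). The alternatives gave adjusted p-values of 0.0995 to 0.561 for it. Day 20 minus day 10 gave 0.84 ± 0.39, with a limma adjusted p of 0.389.

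The levels of GPX3 therefore ran in the order growth plate day 20, growth plate day 10, native growth plate and articular day 20, with the other two articular samples under the floor and without an order. Since no condition was replicated, gaps were set against 0.45 on the log2 scale. This is the square root of 2 times the median residual SD of all genes. That residual is the tissue-by-stage interaction, so 0.45 measures no spread between arrays of a condition. It is a common scale and cannot show which levels differ. Growth plate day 20 and day 10 differed by less than this, at 0.39, and so did native growth plate and articular day 20, at 0.43.

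**Figure D1:**
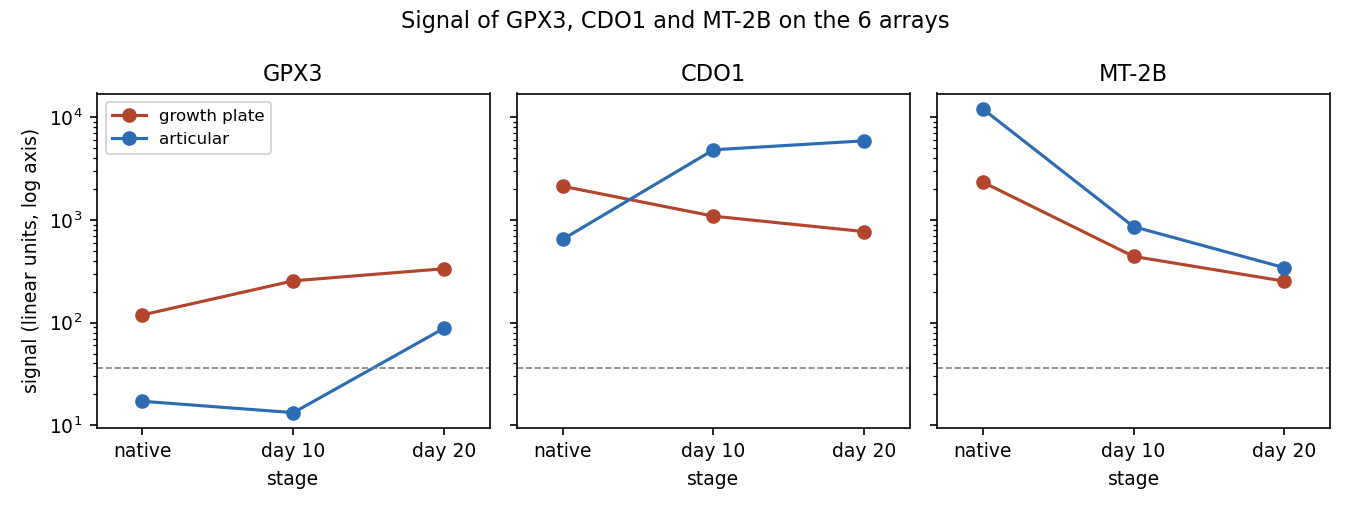
Signal of GPX3, CDO1 and MT-2B (vertical axis, linear signal units on a log axis) by stage (horizontal axis) for growth plate (red) and articular (blue) samples. Each point is 1 array, there are no error bars, and the dashed line is the floor of 36.1. The GPX3 lines stay apart, the CDO1 lines cross between native tissue and day 10, and both MT-2B lines are highest in native tissue, at 2348 in growth plate and 12162 in articular cartilage.

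CDO1 was higher in growth plate than in articular cartilage in native tissue, and lower in growth plate than in articular cells in culture. Its signals were 2135 in native tissue, 1091 at day 10 and 771 at day 20 in growth plate samples, against 647, 4835 and 5919 in articular samples. The highest signals were those of the 2 articular cultures and the lowest was that of native articular cartilage, so the tissues overlap when stages are pooled.

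In native tissue CDO1 was 3.30-fold higher in growth plate, where 5.12% of genes had a difference as large. At day 10 it was 4.43-fold lower in growth plate, and at day 20 it was 7.68-fold lower. These ranked 22nd and 10th from the bottom among 5601 genes. At least 4-fold lower signals in growth plate cultures were found for 0.5% of genes at day 10 and 0.75% at day 20. CDO1 was 1 of 11 genes (0.196% of those tested) that were above articular cartilage in native growth plate and below articular cells in growth plate cultures at both days, each time by 2-fold or more. Only 2 genes (0.0357%) did the opposite.

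Seen within each tissue, the 2 cultures departed from their native tissue in opposite directions. In growth plate cells CDO1 was 1.96-fold lower at day 10 and 2.77-fold lower at day 20 than in native cartilage, a mean log2 difference of -1.22, where 5.71% of genes were lower at day 20 by 2-fold or more. In articular cells it was 7.47-fold higher at day 10 and 9.15-fold higher at day 20, a mean of 3.05. At least 4-fold higher signals than in native tissue were found for 4.46% of genes in articular cultures at day 10 and 4.37% at day 20. The articular values rest on the native articular array, and the tissue difference within culture does not use it.

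Markers of fibroblasts and synovium also differed between these samples. The 6 on the array, of 7 listed, summed to 15120, 11501 and 32667 in growth plate samples, against 9760, 18030 and 23435 in articular samples. LUM, which encodes the matrix protein lumican, had signals of 956, 780 and 10749 in growth plate samples against 15.5, 1498 and 2784 in articular samples. THY1, a surface protein of fibroblasts, had 6583, 2894 and 8968 in growth plate samples against 1818, 7416 and 10631 in articular samples. COL1A2 had 432, 381 and 2343 against 146, 585 and 838, and COL3A1 had 262, 129 and 406 against 58.0, 157 and 473. DCN had 2379, 1703 and 9444 against 3319, 2914 and 5075, and so was lower in growth plate in native tissue. PDPN had 4509, 5614 and 757 against 4404, 5460 and 3634, and so was higher in growth plate at day 10. The sum was higher in growth plate in native tissue and lower at day 10, as CDO1 was, but higher at day 20, where CDO1 was lower. The part of these cells in the CDO1 signal was not tested.

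The tissue difference of CDO1 in native cartilage minus its mean in culture was 4.27 on the log2 scale, which was the 15th largest in size of 5601 genes. With 1 array a condition this difference cannot be tested. The model that adds a tissue effect to a stage effect left CDO1 a residual SD of 1.06, against a median of 0.32 over all genes. Its mean tissue difference of -1.12 ± 0.87 and mean culture difference of 0.91 ± 0.92 average over values of opposite sign. Without either native array the tissue difference was -2.54. Without native growth plate cartilage the culture difference was 3.05, and without native articular cartilage it was -1.22. Day 20 minus day 10 was -0.10 ± 1.06, with a limma adjusted p of 0.976, the growth plate signal being 1.41-fold lower and the articular signal 1.22-fold higher at day 20. That difference was 1.26 without growth plate day 20 and 0.67 without articular day 10.

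In the order of CDO1 levels, articular day 20 and day 10 lay within 0.45 of each other on the log2 scale, at 0.29, and growth plate day 20 and native articular cartilage lay 0.25 apart. The remaining neighbours were 0.50 to 1.18 apart. CDO1 itself had a residual SD of 1.06, against the median of 0.32 from which 0.45 was made. Gaps above 0.45 are therefore not shown to be differences.

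**Figure D2:**
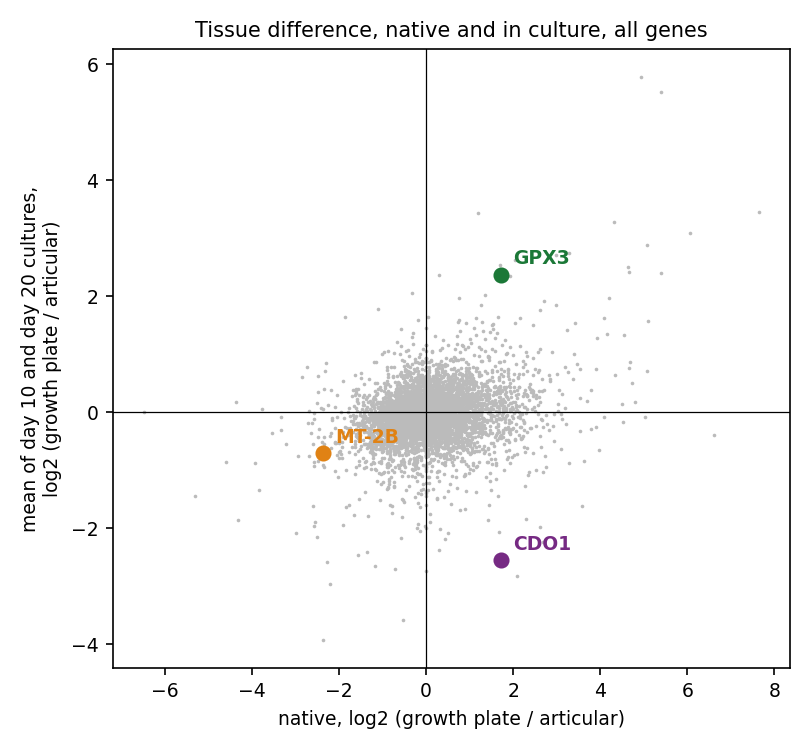
Log2 ratio of growth plate over articular signal in native cartilage (horizontal axis) and its mean over the day 10 and day 20 cultures (vertical axis) for the 5601 genes tested. Each grey point is a gene, and the 3 genes are coloured and named. GPX3 lies in the upper right, MT-2B in the lower left, and CDO1 in the lower right, with 1.72 in native tissue.

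MT-2B was far higher in native tissue than in culture, in both tissues. Its signals were 2348 in native tissue, 442 at day 10 and 253 at day 20 in growth plate samples, against 12162, 862 and 343 in articular samples. Both native signals were above all 4 culture signals, which held for 10.7% of genes tested. In each tissue the signal was lower at day 10 than in native tissue and lower again at day 20 than at day 10, as it was in both tissues for 3.95% of genes.

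Relative to native cartilage, MT-2B was 5.31-fold lower at day 10 and 9.27-fold lower at day 20 in growth plate cells, and 14.1-fold and 35.5-fold lower in articular cells. Signals lower by 4-fold or more were found for 0.982% of genes at day 10 and 0.661% at day 20 in growth plate, and for 1.75% and 1.79% in articular cells. At day 20 this was the 5th largest decrease of 5601 genes in growth plate and the 3rd largest in articular cells. It was 1 of 39 genes (0.696% of those tested) at least 2-fold lower in culture in all 4 pairs with native tissue, the comparison for which it was chosen. The fitted culture minus native log2 difference was -3.65 ± 0.41. Without the native articular array it was -2.81, from growth plate alone, and without native growth plate cartilage it was -4.48.

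MT-2B was also lower in growth plate than in articular samples at each stage, by a margin that was widest in native tissue. The growth plate signal was 5.18-fold lower in native tissue, where 7.91% of genes were lower by 2-fold or more, 1.95-fold lower at day 10 and 1.35-fold lower at day 20. The mean log2 difference of -1.26 ± 0.39 had a limma adjusted p of 0.440, with the same direction in 3 of 3 pairs. Over the alternatives its adjusted p was 0.145 to 0.624, and without native articular cartilage the difference was -0.70. That contrast called 2 genes higher (0.0357% of genes) and 1 lower (0.0179%) with all arrays, and MT-2B was not among them.

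Day 20 minus day 10 for MT-2B was -1.07 ± 0.48, with a limma adjusted p of 0.373 and the same direction in both tissues, where it was 1.74-fold lower in growth plate and 2.51-fold lower in articular cells. Without native growth plate cartilage the same difference stayed at -1.07, with an SE of 0.23, and without native articular cartilage with an SE of 0.25. In both fits MT-2B passed the threshold for a call, but so did many of all genes, where 0 did with all arrays. In the order of levels, the day 20 articular culture lay within 0.45 of both growth plate cultures, with log2 gaps of 0.37 to day 10 and 0.44 to day 20.

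Native articular cartilage, where MT-2B was highest, also had the highest signal of PECAM1, an endothelial adhesion molecule. PECAM1 had signals of 67.2, 52.9 and 52.6 in growth plate samples and 277, 118 and 65.6 in articular samples. The 7 endothelial markers summed to 292 in native growth plate and 519 in native articular cartilage, and to 152 to 322 in the cultures. ENG had signals of 141, 75.4 and 104 in growth plate samples against 178, 125 and 139 in articular samples. CLDN5 had 29.1, 3.87 and 94.2 against 39.8, 26.9 and 99.5. CDH5, VWF, KDR and TEK were under the floor on all 6 arrays. The 5 myeloid markers were summed at 100.4 and 69.3 in native growth plate and native articular cartilage. CD163 and PTPRC were under the floor on every array. The highest signals of CD14, AIF1 and C1QA were 43.8, 36.9 and 41.8, all in growth plate samples. The part of other cells in the MT-2B signal was not tested.

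**Figure D3:**
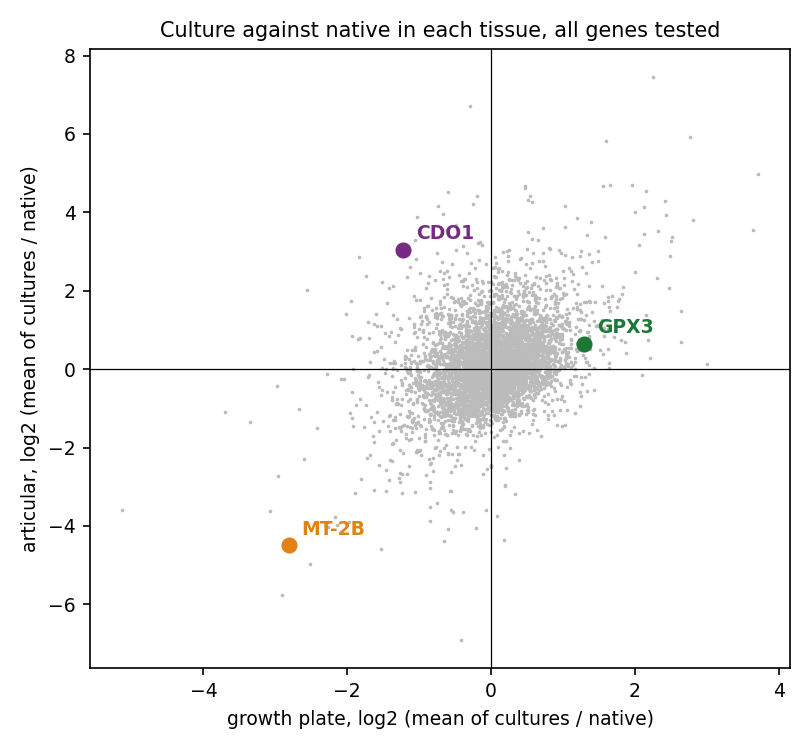
Log2 ratio of culture over native signal, averaged over day 10 and day 20, in growth plate (horizontal axis) and articular samples (vertical axis) for the 5601 genes tested. Each grey point is a gene, and the 3 genes are coloured and named. MT-2B lies far to the lower left at -2.81 and -4.48, CDO1 in the upper left at -1.22 and 3.05, and GPX3 to the right of zero on the horizontal axis at 1.30, with 0.65 on the vertical axis.

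The pattern of each gene was set beside those of 841 genes that were above the floor on at least 4 arrays and ranged over at least 4-fold, by Pearson's r of log2 signals over the 6 arrays. With 6 points that share stage and tissue these values are descriptions. The genes most like GPX3 were ALPL, the phosphatase of mineralising cartilage, OVOL1 and MITF, both transcription factors, NUDT7, a peroxisomal coenzyme A hydrolase, and MMP13, a collagenase, with r between 0.927 and 0.935. The native and day 10 articular signals of GPX3, ALPL and OVOL1 were all set to the floor. Over the alternatives the lowest r was 0.76 for ALPL, 0.81 for MITF, 0.85 for NUDT7, 0.86 for MMP13 and 0.93 for OVOL1. MMP13 had signals of 91.2, 300 and 513 in growth plate samples against 39.8, 27.0 and 30.5 in articular samples. The bright probe set alone carried the pattern for MITF and MMP13, whose other probe sets were at or near the floor.

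The 5 genes most like CDO1 were GSDMD, which encodes a pore-forming protein of inflammatory cell death, ISYNA1, an enzyme that makes inositol, FNTA, the alpha subunit of protein farnesyltransferase, FIBIN, and TGFB3, a growth factor, with r between 0.931 and 0.976. All 5 are among the 11 genes that changed sides in the same way. CDO1 was chosen for changing sides, so genes picked for following it would nearly always do the same, and this is no separate result. GSDMD had signals of 279, 153 and 172 in growth plate samples against 102, 471 and 516 in articular samples. FNTA had another bright probe set that did not follow CDO1, with r of -0.34, where the one used had 0.96. The dimmer probe set of TGFB3, above the floor on 5 arrays, had r of 0.50.

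MT-2B had the most genes of like pattern, 45 with r over 0.9, against 7 for GPX3 and 5 for CDO1. Nearest were SYBU, a microtubule transport adaptor, KCNMA1, a calcium-gated potassium channel, SF1, a splicing factor, LPIN1, a phosphatidate phosphatase, and AWN, a spermadhesin, with r between 0.972 and 0.993. SYBU had signals of 292, 140 and 85.3 in growth plate samples against 1011, 182 and 113 in articular samples. LPIN1 showed the pattern on both of its probe sets, with r of 0.97 and 0.96. The other probe set of KCNMA1, above the floor on 4 arrays, had r of 0.40, where the one used had 0.99. Among the 3 chosen genes themselves r was -0.35 between GPX3 and CDO1, -0.66 between GPX3 and MT-2B, and -0.33 between CDO1 and MT-2B.

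Genes of the same pathways were read from 13 lists of peroxide, superoxide, thioredoxin, selenium, sulfur, glutathione, metal and glucocorticoid genes. The lists hold GPX3, CDO1 and MT-2B themselves, which were chosen for their differences. Of 206 listed genes 126 were on the array under these symbols and 105 were tested. In growth plate minus articular, 3 of the 105 (2.86%) were higher and 4 (3.81%) lower by 2-fold or more, where 3% and 2.23% of all genes were. GPX3 is among the 3, and CDO1 and MT-2B are among the 4, with DUSP1, a glucocorticoid target. In culture minus native, 6 (5.71%) were higher and 7 (6.67%) lower by 2-fold or more, where 6.5% and 3.84% of all genes were. MT-2B is among the 7. None of the 105 was called by limma in either contrast. An unadjusted limma p under 0.05 was found for 13 and 26, or 12.4% and 24.8%, where 10.7% and 19.4% of all genes had one. These counts include GPX3, CDO1 and MT-2B, for which a contrast used in choosing them is no test. When a native array was left out of culture minus native, some of the 105 were called, but native tissue then had 1 array. More of all genes passed the threshold as well. That holds for every such call of a single gene given below.

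Among the peroxide-removing enzymes, the 11 measured glutathione peroxidases, peroxiredoxins and catalase had a median tissue log2 difference of 0.08, against -0.04 over all genes, and GPX3 was the only one of them at least 2-fold apart in the fit. GPX1, the cytosolic glutathione peroxidase, had signals of 4448, 5097 and 3931 in growth plate samples against 10732, 6418 and 4492 in articular samples. GPX4, which protects membrane lipids, had signals of 3939, 3260 and 5532 against 3446, 4017 and 4158. In culture minus native, none of the 11 was 2-fold apart and the median was 0.18, against 0.06 over all genes.

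The 15 measured genes of selenoproteins and their synthesis had a median culture minus native difference of 0.46, with 2 higher and 0 lower by 2-fold or more, 0 called by limma and 8 at an unadjusted p under 0.05. SELENOP, the secreted protein that carries selenium between tissues, had signals of 45.4, 259 and 138 in growth plate samples against 27.8, 176 and 593 in articular samples. Both native signals were below all 4 culture signals. With the native articular signal set to the floor, the log2 difference was 2.61 ± 0.60, with a limma adjusted p of 0.143. Over the alternatives that p ran from 0.00298 to 0.393, and SELENOP was called without native growth plate cartilage or growth plate day 20. Its difference was 2.05 without native articular cartilage and 0.86 with the floor at the 60th percentile. The list median was 0.21 without native articular cartilage and 0.18 with no filter. DIO2, a thyroid hormone deiodinase outside the naming rule, and GPX3 were the 2 of the same list higher in growth plate by 2-fold or more. DIO2 had signals of 198, 106 and 57.4 in growth plate samples against 11.2, 15.8 and 46.4 in articular samples. With 11.2 and 15.8 set to the floor, its difference was 1.44 ± 0.43 with a limma adjusted p of 0.436, and 0.93 without either native array.

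Of the thioredoxin and glutaredoxin genes, 3 of 15 were at least 2-fold higher in culture, with a median of 0.39, while 0 were called by limma and 5 had an unadjusted p under 0.05. GLRX2, a mitochondrial glutaredoxin, had signals of 415, 1020 and 885 in growth plate samples against 243, 1181 and 717 in articular samples, at least 2-fold higher in culture in 4 of 4 pairs. Its log2 difference was 1.56 ± 0.28, with a limma adjusted p of 0.114, and it was called without native growth plate cartilage, with 0.000731, and without native articular cartilage, at 1.20 with 0.0351. Between the tissues the list had a median of 0.02, and TXNRD3, a thioredoxin reductase, had the largest difference at 0.72 ± 0.22. That difference was 0.36 with the mean of its probe sets, and the native articular signal of 27.9 was set to the floor.

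SOD2, the mitochondrial superoxide dismutase, was lower in culture than in native tissue. It had signals of 2697, 542 and 1100 in growth plate samples against 7405, 1130 and 1009 in articular samples, and was at least 2-fold lower in culture in 4 of 4 pairs. The culture minus native log2 difference was -2.30 ± 0.35, with a limma adjusted p of 0.101. It was called without native growth plate cartilage, at -2.79 with an adjusted p of 0.000107, without native articular cartilage, at -1.80 with 0.0105, and without growth plate or articular day 20, with 0.0037 and 0.039. The other 3 measured genes of the superoxide list lay within 2-fold in that contrast. SOD1, the cytosolic enzyme, had -0.07 ± 0.21, a direction that turned with quantile normalization, at 0.07, and without native articular cartilage, at 0.27.

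NRF2 is the transcription factor that induces many antioxidant genes. Of the 13 measured genes of its list, 1 was higher in growth plate by 2-fold or more and 0 were lower, and in culture minus native 0 were 2-fold apart, with a median of 0.06, the same as over all genes. GCLC, the catalytic subunit of the enzyme that limits glutathione synthesis, had signals of 474, 377 and 570 in growth plate samples against 138, 152 and 522 in articular samples. Its tissue log2 difference was 1.07 ± 0.38, with a limma adjusted p of 0.452. It was under 2-fold without either native array, at 0.72, and with the mean of its probe sets, at 0.46, and 2 dimmer probe sets of the gene had 0.48 and 0.73. TXNRD1, a thioredoxin reductase, had a culture minus native difference of 0.90 ± 0.34, of 1.60 without native growth plate cartilage, where it was called, and of 0.21 without native articular cartilage. The 12 measured genes of glutathione synthesis, breakdown and transfer had a median tissue difference of -0.05 and a median culture difference of 0.15, where MGST3, a microsomal glutathione transferase, had the largest at 0.83 ± 0.29, called without native growth plate cartilage at 1.20, and 0.45 without native articular cartilage, where the list median was 0.02.

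The list that holds CDO1 had 11 measured genes of cysteine, taurine and hydrogen sulfide metabolism. Of these, 2 were lower in growth plate by 2-fold or more, and 0 were higher by as much. The 2 were CDO1 and TST, a mitochondrial sulfurtransferase named here after its values were seen. TST was at -1.05, with its growth plate day 20 signal of 2.92 set to the floor, and at -0.52 without either day 20 array. In culture minus native, 2 of the 11 were lower by 2-fold or more and 0 higher, with a median of 0.06. CTH, which makes cysteine from cystathionine, had signals of 910, 323 and 318 in growth plate samples against 559, 283 and 178 in articular samples. Its log2 difference was -1.41 ± 0.28, with a limma adjusted p of 0.131 and the same direction in 4 of 4 pairs. The adjusted p was 0.0177 without native growth plate cartilage and 0.0307 without native articular cartilage. SLC3A2, the heavy chain of the cystine and amino acid exchangers, also outside the naming rule, had -1.35 ± 0.34, was called at -1.60 without native growth plate cartilage, and had -1.10 without native articular cartilage. SUOX, which completes the oxidation of cysteine sulfur to sulfate, had signals of 207, 198 and 158 in growth plate samples against 70.0, 282 and 286 in articular samples.

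In the methionine cycle, which feeds cysteine synthesis, 4 genes were measured. MAT2A, which makes S-adenosylmethionine, had signals of 324, 1556 and 421 in growth plate samples against 193, 1058 and 387 in articular samples, with its highest signal at day 10 in both tissues. Its culture minus native difference was 1.52 ± 0.26, with a limma adjusted p of 0.109, and with 0.00183 and 0.0281 when native growth plate or native articular cartilage was left out, at 1.73 and 1.32. Sulfate is used by cartilage to sulfate its proteoglycans, and of 5 measured genes of its activation and transport 1 was at least 2-fold higher in culture. This was BPNT1, a bisphosphate nucleotidase, at 1.58 ± 0.24 with a limma adjusted p of 0.101, which was under 0.05 without either native array or growth plate day 20, while PAPSS2, which activates sulfate in cartilage, had 0.02 ± 0.16, and -0.11 without native articular cartilage. Between the tissues the largest difference of the list was -0.32 ± 0.28, for SLC35B2, a transporter of activated sulfate, and it was 0.01 without either native array.

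Metallothionein genes share much of their sequence and lie near each other in the pig genome, where MT-2B is found beside MT3, MT4, MT1D and MT1A in the RefSeq table of the Sscrofa11.1 assembly. How far the MT-2B probe set also detects its relatives was not tested. The probe set annotated with MT1A alone had signals of 82.8, 28.8 and 64.3 in growth plate samples against 157, 41.4 and 31.8 in articular samples. Like MT-2B it was highest in the 2 native tissues. With the culture signals of 28.8 and 31.8 set to the floor, its culture minus native log2 difference was -1.40 ± 0.40, with a limma adjusted p of 0.166. That difference was -0.78 without native articular cartilage, and -2.02 without native growth plate cartilage, where it was called with an adjusted p of 0.00518. A probe set annotated with both MT1A and MT3 did not follow MT-2B, with signals of 108, 234 and 216 in growth plate samples against 242, 273 and 212 in articular samples. The MT3 probe set was under the floor on all 6 arrays.

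Of 8 measured zinc transporters, 1 was at least 2-fold lower in culture and 0 higher, with a median of -0.07, or -0.27 without native articular cartilage. SLC39A14, an importer of zinc and iron, had signals of 458, 172 and 150 in growth plate samples against 194, 94.7 and 188 in articular samples, a log2 difference of -1.03 ± 0.41 with a limma adjusted p of 0.252. It was under 2-fold without native growth plate cartilage, at -0.54, and without growth plate day 20, at -0.68, and was -1.51 without native articular cartilage. Between the tissues SLC39A4, a zinc importer, had the largest difference, 0.90 ± 0.30. Of 12 iron and copper genes 1 was at least 2-fold lower in culture. This was SLC11A2, a divalent metal importer, at -1.38 ± 0.32 with a limma adjusted p of 0.143, whose next brightest probe set had -0.94. It was called without native growth plate cartilage, with an adjusted p of 0.0147, and was under 2-fold with the mean of its probe sets, at -0.63. Between the tissues none of the 12 was 2-fold apart on the probe set used, although the next brightest of SLC11A2 had -1.15 where the one used had 0.26, and SLC31A2, a copper transporter, had the largest difference on those probe sets at 0.65 ± 0.24, or 0.32 with the mean of its probe sets.

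Since glucocorticoids induce metallothioneins, a list of their target genes was also read. It holds as well NR3C1, their receptor, and HSD11B1, an enzyme that activates them. None of the 8 measured genes of that list was 2-fold apart in culture minus native, and 1 was lower in growth plate by 2-fold or more. The culture minus native median was -0.42, or -0.07 without native articular cartilage. The gene lower in growth plate was DUSP1, a phosphatase that shuts off MAP kinases. It had signals of 2630, 2988 and 3346 in growth plate samples against 16411, 3190 and 5123 in articular samples. Its tissue difference was -1.12 ± 0.48, with a limma adjusted p of 0.476, and it was -0.35 without native articular cartilage. In culture minus native it was -0.88, and 0.27 without native articular cartilage.

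**Figure D4:**
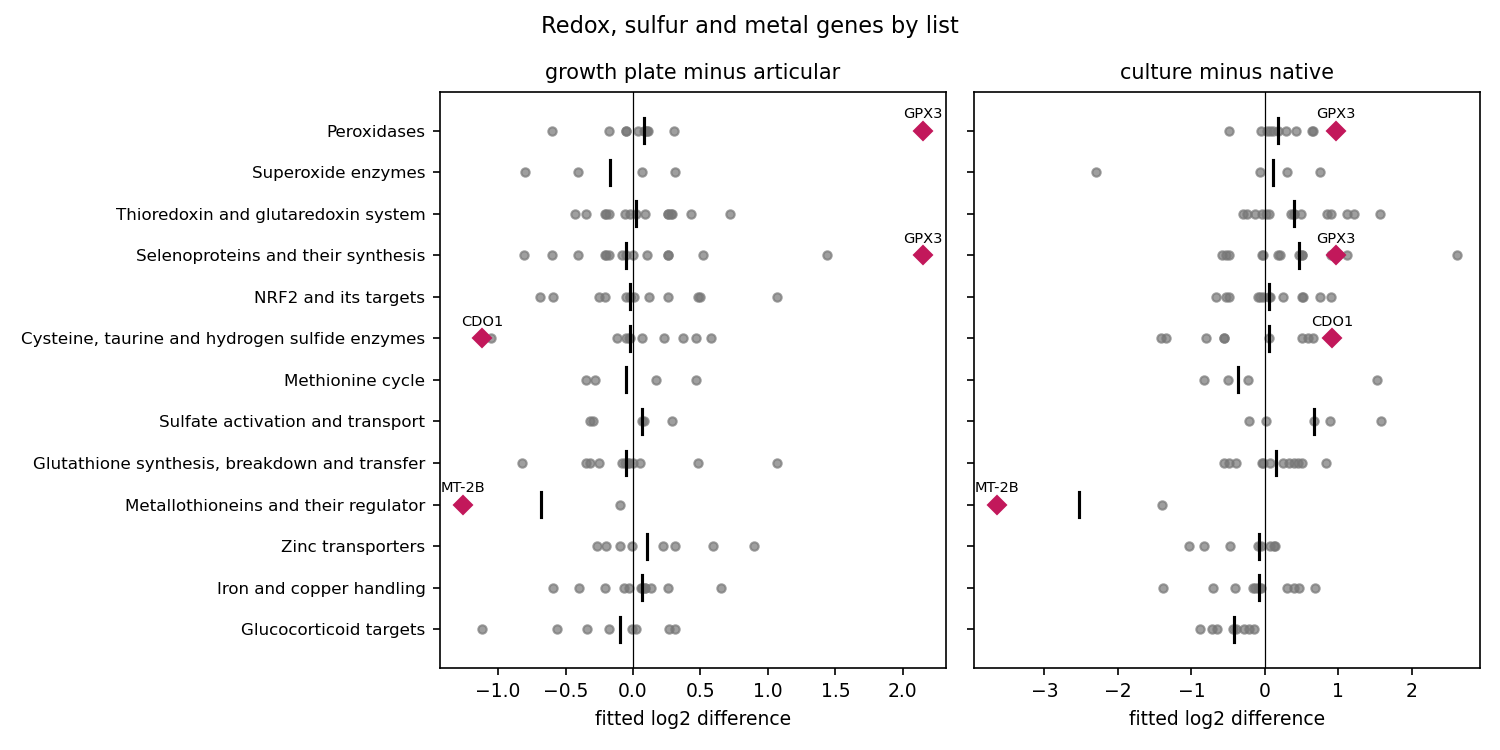
Fitted log2 difference of growth plate minus articular (left) and culture minus native (right) for the measured genes of 13 lists, 1 list a row. Grey points are genes, black bars are list medians, and pink diamonds are GPX3, CDO1 and MT-2B. GPX3 stands at 2.15 on the left among peroxidases whose median is 0.08, and MT-2B at -3.65 on the right.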

How the data were processed

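The deposited values are linear signal intensity values per probe set, made by the authors with GCOS 1.4 per the submitters' processing notes. Scaling target, algorithm settings and detection calls are not given in the sources used here. The mean of each array without its top and bottom 2% was equal on all arrays within a ratio of 1.00005, and no further scaling was done. Per the labels' protocols, labelling with biotin started from 100 ng of RNA and used 2 cycles. Precision is limited by how few arrays there are.

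Of 24123 probe sets 124 controls were left out. Symbols came from the platform annotation, updated by gene ID through RefSeq. Each gene was represented by its probe set of highest mean log2 signal. Tissue and stage were fitted as additive effects in limma 3.58.1 (R 4.3.3), using an intensity trend, 2 residual degrees of freedom and 3.74 from the prior. The only residual is the tissue-by-stage interaction. Calls needed an adjusted p under 0.05 (Benjamini-Hochberg over all 5601 genes) and a 2-fold change. The code of the fit was checked on simulated data with additive tissue differences only and less spread than here. That check does not measure how the fit performs on these arrays.

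Named were the 3 genes, up to 4 genes of each list that were at least 2-fold apart in every pair of a contrast (otherwise the gene of largest difference), and the 5 genes most like each of the 3. Others are said to be outside the rule or are list members given for background. The genes and lists were chosen with earlier results of these data known. The alternatives were quantile normalization, median centring, floors at the 25th and 60th percentile, a pseudocount of 50, no filter, a filter on all 6 arrays, averaging a gene's probe sets, each probe set as a feature, no trend, and leaving out each array.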

Additional observations from a re-analysis of the deposited data

Results flagged for a closer look

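CDO1 differed from native tissue in opposite directions in the 2 tissues. The log2 differences of culture over native were -0.97 at day 10 and -1.47 at day 20 in growth plate cells, and 2.90 and 3.19 in articular cells. Likewise its log2 difference of growth plate over articular was 1.72 in native tissue, -2.15 at day 10 and -2.94 at day 20. DUSP1 also went opposite ways, with log2 differences of culture over native of 0.18 at day 10 and 0.35 at day 20 in growth plate cells, and -2.36 and -1.68 in articular cells. SOD1 and PAPSS2 did so by less, with 0.47 and 0.07 in growth plate cells and -0.33 and -0.50 in articular cells for SOD1, and -0.19 and -0.02 in growth plate cells and 0.18 and 0.11 in articular cells for PAPSS2. With 1 array for each condition, none of these differences between groups was tested.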

How the results depend on the processing

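Over 10 alternatives and the 6 arrays left out in turn, 1410 of 1647 recomputed values were labelled the same, 203 moved, 23 newly called and 11 reversed. Tested differences were the same if they kept direction and side of the threshold, and untested ones if they moved within the residual SD. Counts, medians and correlations were the same within a set margin, whatever their sign. Untested differences under 2-fold were never labelled reversed, and CDO1 culture minus native, from 0.91 to -1.22, was labelled moved. None of the tested differences was called with all arrays, so none could lose a call. The GPX3 tissue difference (2.15) was 2.93 with the floor at the 25th percentile, 0.74 at the 60th and 1.69 with a pseudocount of 50, since 2 of its articular signals lie under the floor, and with the filter on all 6 arrays GPX3 was not kept.

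Leaving out 1 array gave 1.82 to 2.37 for the GPX3 tissue difference. For CDO1 it gave -2.54 to -0.21 between tissues, -1.22 to 3.05 for culture minus native and -1.47 to 1.26 for day 20 minus day 10, reversed at 1.26 without growth plate day 20 and 0.67 without articular day 10. For MT-2B it gave -1.67 to -0.70 between tissues, -4.48 to -2.81 for culture minus native and -1.68 to -0.45 for day 20 minus day 10. SLC35B2 between tissues ran from -0.54 to 0.01, reversed without either native array, and DUSP1 in culture minus native from -2.02 to 0.27, reversed without native articular cartilage. Values near 0 in culture minus native also reversed: SOD1 (-0.07) was 0.07 with quantile normalization, 0.27 without native articular cartilage and 0.06 without articular day 10, in a range of -0.41 to 0.27, and PAPSS2 (0.02) was -0.07 with median centring, -0.11 without native articular cartilage and -0.06 without articular day 10, in a range of -0.11 to 0.15.

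In growth plate minus articular, 2 genes were called higher and 1 lower. Higher calls numbered 4 with quantile normalization, 4 with median centring, 0 with no filter, 0 with the filter on all 6 arrays, 1 with the mean of probe sets and 1 with no trend, and 2 to 62 with an array left out. Lower calls numbered 2, 4, 0, 0, 0 and 0 under the same settings, 2 and 3 with the floor at the 25th and 60th percentile, 3 with the pseudocount, and 0 to 79 with an array left out. In culture minus native, where 0 were called, median centring called 4 higher and 5 lower, the 60th percentile floor 2 and 3, the pseudocount 1 and 4, single probe sets 1 and 1, and the filter on all 6 arrays 3 lower. Leaving out an array gave 1 to 754 higher and 6 to 414 lower, the most without native growth plate cartilage. In day 20 minus day 10 it gave 0 to 256 higher and 0 to 250 lower, the most without native articular cartilage.

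Of the pathway list genes, leaving out an array called 0 to 2 higher and 0 to 1 lower between tissues, 0 to 14 and 1 to 13 in culture minus native, and 0 to 6 and 0 to 4 in day 20 minus day 10. Genes at least 2-fold higher between tissues (3) numbered 5 and 1 with the 25th and 60th percentile floors and 1 with the filter on all 6 arrays, and 3 to 4 with an array left out, and those 2-fold lower 2 to 3. For culture minus native they numbered 6 to 18 higher and 6 to 13 lower, with 1 called lower under median centring. In day 20 minus day 10 they numbered 6 to 12 higher and 2 to 8 lower, and 1 lower under the pseudocount, against 4 as reported and 3 to 5 under the other settings with all arrays. Beyond the floor for GPX3, the cause of these differences was not tested.

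No paired analysis was possible because each condition has 1 array and no replicate numbers pair the arrays. The only residual spread is the tissue-by-stage interaction, so p-values measure no spread between animals or cultures, and a gene that differs between the tissues in its course over the stages, as CDO1 does, has a large SE. Signals near the floor, as for GPX3 in articular samples, give bounds only.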

Other observations

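Between day 10 and day 20 of culture, 4 genes of the 13 lists were at least 2-fold higher at day 20 in both tissues, as 2.46% of all genes were, and 1 was at least 2-fold lower, as 2.87% were. They are named after their values were seen. SLC39A4, a zinc importer, had day 10 and day 20 signals of 129 and 706 in growth plate cells, and of 97.3 and 321 in articular cells. TXNIP, which binds and restrains thioredoxin, had 4119 and 8964 in growth plate cells, and 3209 and 11617 in articular cells. CYBA, a membrane subunit of the NADPH oxidases, had 403 and 1190 in growth plate cells, and 442 and 1133 in articular cells. TF, the iron carrier transferrin, had 153 and 420 in growth plate cells, and 180 and 512 in articular cells. MAT2A was the gene lower at day 20, with 1556 and 421 in growth plate cells, and 1058 and 387 in articular cells. With limma, 0 genes of the lists were called in this contrast and 15 of 105 (14.3%) had an unadjusted p under 0.05, where 14.6% of all genes did.

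Adipose tissue is a known site of GPX3 and CDO1 expression, so its markers were read as well. ADIPOQ had signals of 24.3, 27.0 and 41.9 in growth plate samples against 40.5, 23.6 and 28.1 in articular samples, near or under the floor. FABP4 was under the floor on 5 of 6 arrays, and its highest signal was 91.5, at day 20 in articular cells. LEP had signals of 21.7, 33.8 and 20.6 in growth plate samples, all under the floor, against 44.0, 52.3 and 82.2 in articular samples. CFD was highest in native articular cartilage, at 142, against 54.5 in native growth plate cartilage. CFD was under the floor at day 10 in growth plate cells and at both days in articular cells. The 6 adipocyte markers summed to 1470, 497 and 1028 in growth plate samples and to 683, 515 and 967 in articular samples, of which LPL, a lipase also found outside fat, gave 1361, 403 and 879 and then 420, 392 and 713. PPARG was under the floor on every array. The part of adipocytes in the GPX3 and CDO1 signals was not tested.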
